A study of Sus scrofa with 8 samples.

Results

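The genes described here encode the subunits, regulators and assembly helpers of the proteasome, measured in the back muscle (longissimus dorsi) of 2 pig breeds, with 1 array for each of 4 biological replicates of the Korean native pig and 4 of the Yorkshire. A gene was included where its symbol begins with PSMA, PSMB, PSMC, PSMD, PSME, PSMF or PSMG and a number. This gave 40 of the 6765 genes that the platform annotation names by exactly 1 symbol, read by 46 probe sets. They fall into 14 subunits of the core particle, 15 of the regulatory cap, 4 immune subunits (PSMB8, PSMB10, PSME1 and PSME2) and 7 accessory genes. PSMB9, the remaining immune catalytic subunit, was not analysed here, and neither were PSMC4 and PSMD7 of the cap. Age was 7 months in the native breed and 6 months in the Yorkshire, and the effects of age and breed cannot be told apart. All animals were kept under the same conditions, per the labels, and muscle was taken between the seventh and the ninth rib.

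The proteasome degrades proteins that have been tagged with ubiquitin, and in skeletal muscle it carries out much of the breakdown of contractile proteins during atrophy. Its core is a barrel of stacked alpha and beta rings. Alpha subunits gate the entrance and PSMB5, PSMB6 and PSMB7 hold the cutting sites. The cap recognises tagged proteins, removes the ubiquitin and threads the chain into the barrel with a ring of ATPases. Interferon induces PSMB8, PSMB9 and PSMB10, which take the places of PSMB5, PSMB6 and PSMB7 in newly built cores, and PSME1 and PSME2, which form an alternative cap. This immunoproteasome makes peptides for presentation on MHC class I molecules.

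Values are array signals on a linear scale, brought to a common level per array before deposit, with a median of 135.8 to 185.3 per array. A signal cannot be compared between probe sets, so no order of abundance among genes is given. Differences are on the log2(signal + 32) scale, Korean native pig minus Yorkshire, and each comes from limma, fitted to all tested probe sets. In a muscle piece, fewer cells of a type and less RNA per cell cannot be told apart. The 15 measured skeletal muscle markers were bright on every array, with summed signals of 614421 to 963374 in the Korean native pigs and 800819 to 1188610 in the Yorkshire pigs. Hybridisation controls, transcripts added to each array, were bright on the arrays numbered 1 and 3 in each breed and dim on those numbered 2 and 4. Korean native pig 1 and Yorkshire 3 stood apart in the 3' minus 5' signal of housekeeping controls, a measure of how complete the labelled RNA was, at 3.33 and 3.03 log2 units against 0.87 to 1.73 on the remaining 6.

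No proteasome gene passed the test between the breeds. All 40 passed the filter on dim probe sets and 0 of 40 passed the threshold of an adjusted p of 0.05, each with limma adjusted p = 0.999. The background was 0% of the 14399 probe sets. At an unadjusted p under 0.05 there were 0 of 40 members, where 3.43% of the 5331 tested genes were, and the breeds overlapped in all 40, where 2.25% of genes showed no overlap. Of the 40 changes 27 were above 0, against 49.6% of all genes, and the median change was 0.037 against -0.0027 over all genes.

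The intervals around these changes were mostly narrow. For 36 of 40 members the 95% interval lay within a 2-fold change in either direction, against 75.6% of all genes tested. The exceptions were PSMB3, PSMB5, PSMD4 and PSMB8. The members were also brighter than most genes, with a median log2 signal of 11.75 against 9.22, and the part of brightness in the narrow intervals was not tested. The median size of a change, without its sign, was 0.11 for the members and 0.17 for all genes.

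**Figure D1:**
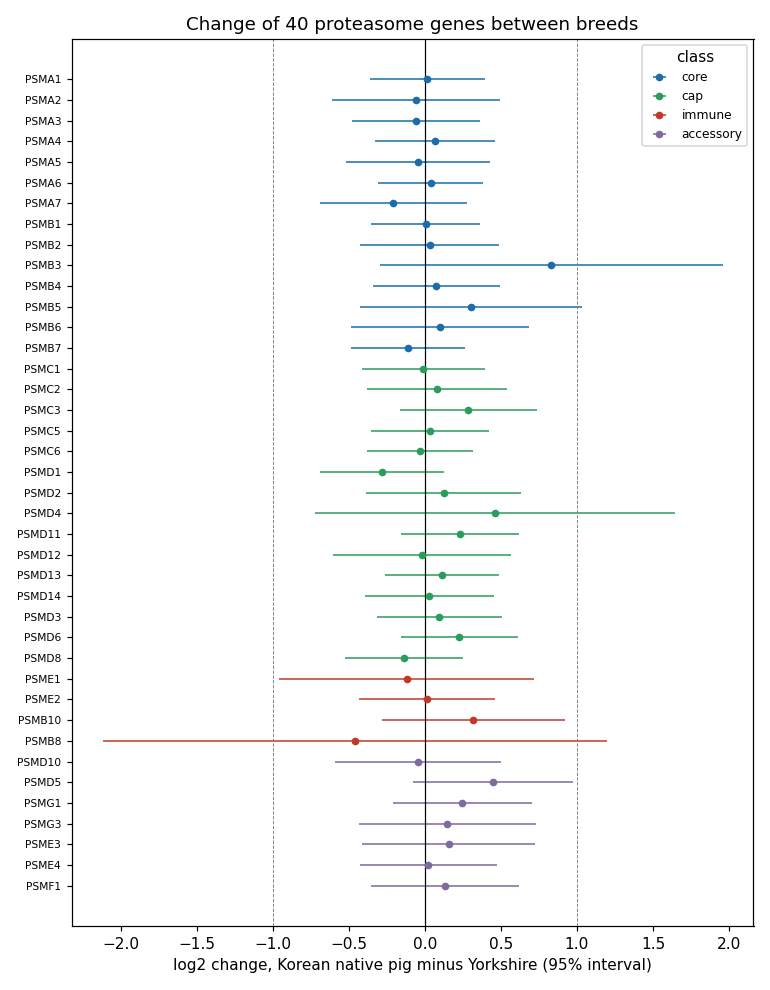
Log2 change of each of the 40 proteasome genes (Korean native pig minus Yorkshire; points, with 95% limma intervals as bars), coloured by class, with dashed lines at a 2-fold change. All 40 intervals include 0, and those of PSMB3, PSMB5, PSMD4 and PSMB8 reach past a dashed line.

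The 7 alpha subunits of the core, PSMA1 to PSMA7, had changes from -0.21 to 0.067, 3 above 0 and 4 below. PSMA7 had the change farthest from 0 in this ring. Its signals were 8670.4, 7379.7, 7724 and 5988 in Korean native pigs 1 to 4 and 9009, 5826, 11724 and 8568 in the Yorkshire pigs 1 to 4. Yorkshire 3 was the highest array and Yorkshire 2 the lowest, so a single breed held both ends. The means were 7441 ± 1112 in the Korean native pigs and 8782 ± 2414 in the Yorkshire pigs (SD, n = 4), with a change of -0.21 (SE 0.22, 95% interval -0.69 to 0.27) and limma adjusted p = 0.999. PSMA6 was the steadiest alpha subunit, at 7708, 9869, 9177 and 8179 in the Korean native pigs and 8019.8, 8223, 8882 and 8765 in the Yorkshire pigs, and its highest array was only 1.28 times its lowest. PSMA3 and PSMA4 had changes of -0.057 and 0.067. PSMA2 had the widest span of the ring, from 5694 in Korean native pig 3 to 12372 in Korean native pig 2. All 7 intervals lay within a 2-fold change.

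Among the 7 beta subunits of the standard core 6 changes were above 0, with a median of 0.076. PSMB5, which carries the chymotrypsin-like site, had signals of 2951, 4684, 1639 and 2731 in the Korean native pigs and 1636, 2392, 1722 and 3936 in the Yorkshire pigs. The breeds overlapped, with Korean native pig 2 the highest and Yorkshire 1 the lowest, and the change was 0.30 (SE 0.33, 95% interval -0.43 to 1.03). Leaving out Korean native pig 2 gave 0.057, and leaving out Yorkshire 4 gave 0.56. PSMB6, the caspase-like subunit, followed the same order at its upper end, with 6394 in Korean native pig 2 and 6097 in Yorkshire 4, and had a change of 0.098, which was 0.40 among the bright arrays and -0.20 among the dim ones. PSMB7, the trypsin-like subunit, varied little, from 3743 to 5354 over the 8 arrays, with a change of -0.11 (SE 0.17, 95% interval -0.49 to 0.26).

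PSMB3, a structural beta subunit, had the largest change of all members. It was read by a dim probe set, at 176, 429, 238 and 209.9 in the Korean native pigs and 193, 394, 36.8 and 63.1 in the Yorkshire pigs. The last 2 of the Yorkshire values lay below 91.5, the 95th percentile of the negative control probe sets, so the size of the difference is uncertain. Its change was 0.83 (SE 0.52, 95% interval -0.29 to 1.96), not past the threshold (limma adjusted p = 0.999). Without Yorkshire 3 it was 0.43 and without Yorkshire 2 it was 1.31. With a pseudocount of 1 it was 1.09, and with the higher of the alternative pseudocounts 0.50. The remaining structural subunits PSMB1, PSMB2 and PSMB4 were at 0.0061, 0.032 and 0.076.

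The 5 measured ATPases of the cap base, PSMC1, PSMC2, PSMC3, PSMC5 and PSMC6, had changes from -0.030 to 0.29. In all 5 the highest array was under 2 times the lowest, which held for 25 of the 40 members and 40.9% of all genes. PSMC6 varied least of the 40, between 4415 and 5617. PSMC3 had the largest ATPase change, with signals of 6102, 7192, 6931 and 5889 in the Korean native pigs and 4627, 4781, 4552 and 7987 in the Yorkshire pigs. In Yorkshire pigs 3 values were close together and the fourth, Yorkshire 4, was the highest of all 8 arrays. The change was 0.29 (SE 0.21, 95% interval -0.16 to 0.74), limma adjusted p = 0.999, and it was 0.50 among the bright arrays and 0.074 among the dim ones, which hold 2 arrays per breed each. PSMC2 and PSMC5 were at 0.080 and 0.035, and 2 further PSMC2 probe sets were at 0.014 and 0.10.

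Of the remaining base subunits, PSMD1 and PSMD2 are large scaffold proteins and PSMD4 is a receptor for ubiquitin chains. PSMD1 signals were 4528, 4874, 3355 and 3215 in the Korean native pigs and 4959, 4959, 4185 and 5096 in the Yorkshire pigs. Korean native pigs 3 and 4 lay below all Yorkshire arrays, while Korean native pigs 1 and 2 lay among them. The change was -0.28 (SE 0.19, 95% interval -0.69 to 0.13), the lowest in the cap, and a second PSMD1 probe set was at -0.062. PSMD2 was at 0.13.

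PSMD4 had the widest spread in the cap, with 2578, 3164, 1470.0 and 2846 in the Korean native pigs and 1699, 3493, 433 and 3503 in the Yorkshire pigs. Yorkshire 3, one of the 2 arrays of high 3' minus 5' signal, stood far below the rest. The change of 0.46 (SE 0.54, 95% interval -0.72 to 1.64) went to -0.18 without Yorkshire 3. Within the bright arrays, which include Yorkshire 3, PSMD4 was at 1.14, and within the dim arrays at -0.22.

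The lid, which removes ubiquitin before a protein enters the core, was measured through 7 subunits, PSMD3, PSMD6, PSMD8, PSMD11, PSMD12, PSMD13 and the deubiquitinating enzyme PSMD14. Their changes ran from -0.13 to 0.23 with 5 above 0, and all 7 intervals lay within a 2-fold change. PSMD11, a scaffold subunit of the lid, had signals of 13148, 13745, 17342 and 12251 in the Korean native pigs and 14008, 10030.2, 12205 and 11828 in the Yorkshire pigs, with the highest value in Korean native pig 3 and the lowest in Yorkshire 2. Its change was 0.23 (SE 0.18, 95% interval -0.16 to 0.62). PSMD6 was at 2836, 3757, 3625 and 3109 against 3401, 2795, 2529 and 2640.1, a change of 0.23 (SE 0.18, 95% interval -0.16 to 0.61), and PSMD8 was at -0.13. PSMD14 was at 0.029, with all 8 signals between 2800.3 and 4517.

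Accessory genes had changes from -0.045 to 0.45, 6 of 7 above 0. PSMD5, a chaperone that holds ATPases during assembly of the base, had the smallest unadjusted p of all members (0.0874; limma adjusted p = 0.999). Its signals were 837, 1501, 1348 and 1378 in the Korean native pigs and 1022, 1175, 785 and 686 in the Yorkshire pigs. The upper 3 Korean native arrays exceeded every Yorkshire array, and Korean native pig 1 lay within the Yorkshire range. The change was 0.45 (SE 0.24, 95% interval -0.077 to 0.98), with 0.24 among the bright and 0.66 among the dim arrays. PSMD10, also known as gankyrin and likewise a base chaperone, was at -0.045.

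The core chaperones PSMG1 and PSMG3, which help to build the alpha ring, were at 0.25 and 0.15. PSMG1 ran from 1433 to 3009.7, with Korean native pig 2 alone above the others. The nuclear activator PSME3 and the activator PSME4 were at 0.16 and 0.023, and PSMF1, an inhibitor of the core, at 0.13. PSME3 was lowest in Yorkshire 3, at 478 against 809 to 1136 on the other arrays, and its change without that array was -0.097.

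The 4 immune subunits overlapped between the breeds, and PSMB8 and PSME1 also varied widely between animals of the same breed. PSMB8, the interferon-induced counterpart of PSMB5, had signals of 372, 339, 42.1 and 1616 in the Korean native pigs and 299, 215, 793 and 943 in the Yorkshire pigs. Both the highest and the lowest array were Korean native pigs, replicates 4 and 3, which differed 38.3-fold, and the value of replicate 3 lay below the negative control limit of 91.5, so that ratio is uncertain. The change was -0.46 (SE 0.76, 95% interval -2.12 to 1.20), limma adjusted p = 0.999. Leaving out Korean native pig 3 gave 0.31, and leaving out Korean native pig 4 gave -1.18. Among the bright arrays alone the change was -1.59, and among the dim arrays 0.67.

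PSME1, the alpha subunit of the interferon-induced cap, was at 993, 698, 493 and 1828 in the Korean native pigs and 658, 724, 1162 and 1603 in the Yorkshire pigs. Its 3 highest arrays were those of PSMB8, Korean native pig 4, Yorkshire 4 and Yorkshire 3, and its lowest was again Korean native pig 3. The means were 1003 ± 587 in the Korean native pigs and 1037 ± 438 in the Yorkshire pigs (SD, n = 4), with a change of -0.12 (SE 0.38, 95% interval -0.96 to 0.71). PSME2, the beta subunit of that cap, varied less, at 1368, 1446, 1067 and 1895 against 1174, 1519.8, 1432 and 1504, and had a change of 0.015 (SE 0.21, 95% interval -0.43 to 0.46). Korean native pig 4 was again the highest and Korean native pig 3 the lowest.

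PSMB10, the counterpart of PSMB7, was at 565, 335, 452 and 759 in the Korean native pigs and 352, 524, 291 and 469.6 in the Yorkshire pigs. It too was highest in Korean native pig 4, but lowest in Yorkshire 3, an array where PSMB8 was high. Its change was 0.32 (SE 0.28, 95% interval -0.28 to 0.92), or 0.13 without Korean native pig 4. All 4 immune subunits were thus highest in the same animal.

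In newly built cores an immune subunit can take the place of its standard counterpart. The log2 difference of the 2 signals was therefore also compared, array by array. For PSMB8 minus PSMB5 it was -2.89, -3.67, -4.49 and -0.75 in the Korean native pigs and -2.33, -3.30, -1.09 and -2.02 in the Yorkshire pigs. Korean native pig 4 was the highest and Korean native pig 3 the lowest. The level itself depends on the probe sets. The breeds differed by -0.76 (exact permutation test, two-sided p = 0.43, adjusted over the 2 pairs also 0.43), with SDs of 1.61 and 0.91 (n = 4 each). Among the bright arrays the difference was -1.98, and among the dim ones 0.45.

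PSMB10 minus PSMB7 was -3.10, -3.83, -2.96 and -2.42 in the Korean native pigs and -3.57, -3.21, -3.84 and -3.42 in the Yorkshire pigs. Korean native pig 2 was the second lowest of the 8 arrays, and the other 3 Korean native arrays were the highest. The difference between breeds was 0.43 (exact permutation test, two-sided p = 0.23, adjusted p = 0.43). It was 0.67 among the bright and 0.19 among the dim arrays. Leaving out Korean native pig 4 gave 0.21, and leaving out Korean native pig 2 gave 0.68. The smallest p that 4 arrays against 4 allow is 0.0286. Neither difference exceeded the spread between replicates by this test.

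**Figure D2:**
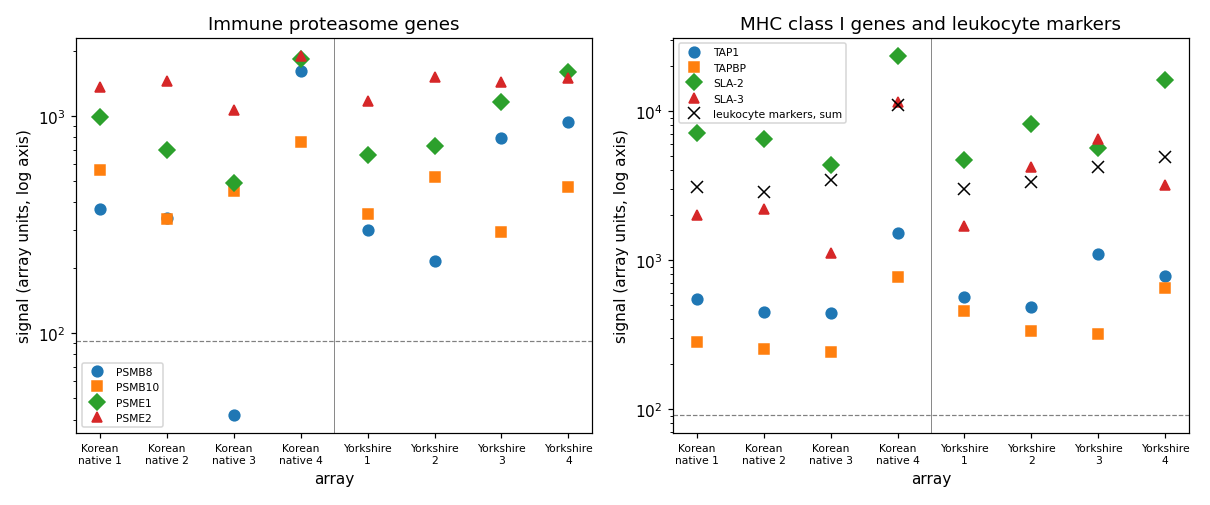
Signals on the 8 arrays (log axis) of the 4 immune proteasome genes (left) and of 4 MHC class I presentation genes with the summed signal of 20 leukocyte markers (right). The dashed line is the negative control limit of 91.5. Korean native pig 4 is highest for all 8 genes shown and for the leukocyte sum. B2M, SLA-8 and CALR of the same class I list, which are not shown, were highest on other arrays. PSMB8 of Korean native pig 3 lies below the line.

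Genes of MHC class I presentation were measured beside the immune subunits, because PSMB8 lies among TAP1, TAP2 and PSMB9 in the RefSeq gene table of the assembly Sscrofa11.1 and the peptides of the immunoproteasome are carried by TAP1 and TAP2. Of 15 listed genes 11 were found and 10 tested. None passed the threshold in either direction, 4 were above and 6 below 0, and the median was -0.096. The lowest p belonged to the class I genes SLA-6 at 0.51 and SLA-8 at -0.53. Class I genes are close copies of each other, so their probe sets may read each other's transcripts.

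Korean native pig 4 was the highest array for 8 of the 11 class I genes found, and B2M, SLA-8 and CALR were highest elsewhere. TAP1, which pairs with TAP2 to form the peptide transporter, was at 548, 449.7, 440.0 and 1523 in the Korean native pigs and 565, 485, 1096 and 785 in the Yorkshire pigs. SLA-2 was at 7116, 6474, 4364 and 23500.5 and 4715, 8131, 5668 and 16204. For both genes Korean native pig 4 was the highest array and Korean native pig 3 the lowest. B2M, the light chain shared by all class I molecules, was at 38079, 32718, 32700.3 and 30283 and 31117, 25772, 29817 and 35553, with Korean native pig 4 the third lowest.

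Across the 8 arrays, 16 relations were computed after the values had been seen, 6 between the immune subunits and 10 between PSMB8 and a class I presentation gene. PSMB8 and PSME1 had Pearson's r = 0.94 (exact permutation p = 0.000149, adjusted p = 0.00238) and Spearman's rho = 0.93 (exact permutation p = 0.00223, adjusted p = 0.0357). Without the 2 PSME1 values farthest from the median, Korean native pig 4 and Yorkshire 4, r was 0.89. That r still includes Korean native pig 3, whose PSMB8 signal lay below the negative control limit. PSMB8 and TAP1 had r = 0.85 (exact permutation p = 0.00469, adjusted p = 0.0375) and rho = 0.86 (exact permutation p = 0.0107, adjusted p = 0.0857), and r was 0.85 without Korean native pigs 3 and 4. By r these were the 2 relations of 16 with an adjusted p under 0.05, and by rho only the first was. With each breed centred on its own mean, r was 0.94 for PSME1 and 0.85 for TAP1, and without Korean native pig 4 it was 0.91 and 0.77.

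All 14 other relations missed the threshold by r. PSMB8 and PSME2 had r = 0.82 and rho = 0.57 (exact permutation p = 0.0171 and 0.151, adjusted p = 0.0546 and 0.269). That r was 0.27 without Korean native pigs 3 and 4, so it rests on those arrays. PSMB8 and PSMB10 had r = 0.22 and rho = 0.26 (exact permutation p = 0.604 and 0.536, adjusted p = 0.691 and 0.66), and r was -0.0023 without Korean native pig 4 and Yorkshire 3. The bright and the dim arrays hold 4 each, under the minimum of 6 for a correlation, so none was computed within them.

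Most leukocyte markers, which would show immune cells in the muscle piece, were highest on the same array. Summed over the 20 measured markers the signal was 3078, 2865, 3426 and 10921 in the Korean native pigs and 2988, 3314, 4192 and 4898 in the Yorkshire pigs. Korean native pig 4 was the highest array for 14 of the 20, with the T cell gene CD8A at 676 against 84.6 to 265 elsewhere and CD74, the invariant chain of MHC class II, at 3141 against 521 to 1641. That array was also the lowest for 3 of the 20. Among these were CD8B, at 83.3 against 85.3 to 316 elsewhere, and CORO1A, at 284 against 292 to 574. PTPRC, the general leukocyte marker CD45, was dim, at 151 in Korean native pig 4 and below 91.5 on the other 7 arrays. In Korean native pig 3, where PSMB8 was lowest, the summed signal was the fourth highest of the 8. Of the 15 skeletal muscle markers 10 were lowest in Korean native pig 4, which had the lowest muscle sum, 614421. No relation between the muscle and leukocyte sums was tested, and the leukocyte sum gives most weight to bright markers such as CD74. Yorkshire 4 had the highest muscle sum, 1188610, and its leukocyte sum was the highest after Korean native pig 4. Korean native pig 2 had the lowest leukocyte sum, and its muscle sum of 680400 was the lowest after Korean native pig 4. Several leukocyte markers were dim, and 8 of the 20 fell below the filter on dim probe sets. CD79B lay below 91.5 on all 8 arrays, and CD2, CD4 and ITGAM on 7 each. The part of leukocytes in the immune subunit values was not tested. Of the 12 tested markers none passed, and the lowest p belonged to AIF1 at 0.71 and LAPTM5 at 0.93.

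Regulators of the interferon response were not called either. Of 17 listed, 13 were tested, 8 were above 0 and 5 below, and the median was 0.13. The antiviral GTPase MX1 was at 337, 227, 168 and 238 in the Korean native pigs and 130.2, 163, 65.7 and 71.7 in the Yorkshire pigs. The breeds did not overlap for MX1, which was so for 2.25% of all genes tested. Its change was 1.00 (SE 0.33, 95% interval 0.29 to 1.72), limma adjusted p = 0.999, and 2 of the Yorkshire signals lay below 91.5. IRF9, a neighbour of PSME1 and PSME2 in the gene table, was at -0.62. MX1 was highest in Korean native pig 1, while 7 of the 15 genes found from this list were highest in Korean native pig 4. GBP1, a guanylate-binding protein induced by interferon, was at 701, 526, 148 and 5503 in the Korean native pigs and 928, 305, 2448 and 1715 in the Yorkshire pigs, with Korean native pigs 4 and 3 at the ends as for PSMB8.

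The spread between animals of a breed was described by class, without a test. The median within-breed SD was 0.28 for the core, 0.22 for the cap, 0.34 for the accessory genes and 0.55 for the immune subunits, in log2 units, against 0.36 for all genes. The immune value rests on 4 genes. The classes also differed in brightness, with median log2 signals of 12.16, 11.77, 9.83 and 9.41 in the same order. The part of brightness in these SDs was not tested. PSMC6 and PSMA6 varied least, and only 1.65% and 1.69% of genes had SDs no higher than theirs. PSMB8 lay at the other end, with an SD of 1.47 that 99.8% of genes did not exceed. PSMD4 and PSMB3, at 1.03 and 0.92, came next among the members, ahead of PSME1 at 0.69. The SDs of PSMB8 and PSMB3 include signals below the negative control limit. PSMB10 and PSME2 were at 0.42 and 0.26, and PSME2 thus lay below the median of all genes.

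The medians of the core and of the cap were both highest in Korean native pig 2, then Yorkshire 4, and lowest in Yorkshire 3. As the median over the core members of log2 signal minus each gene's mean, the core stood at 0.0017, 0.31, -0.034 and -0.077 in the Korean native pigs and -0.090, -0.014, -0.11 and 0.19 in the Yorkshire pigs. The cap was at -0.062, 0.22, -0.0011 and -0.024 and 0.055, 0.046, -0.27 and 0.20. Korean native pig 2 was the highest array for 10 of 14 core and 5 of 15 cap genes, and Yorkshire 4 for 2 core and 7 cap genes. Yorkshire 3 was the lowest array for 2 core and 8 cap genes, and Korean native pig 1 for 3 core genes. Of 10 genes of ubiquitin supply and activation, 6 were highest in Korean native pig 2 and 5 were lowest in Yorkshire 3. The share over all genes was not computed. The immune class was at 0.024, -0.31, -0.63 and 0.83 and -0.36, -0.12, 0.17 and 0.43, with the extremes in Korean native pigs 4 and 3. Korean native pig 2 and Yorkshire 4 have dim hybridisation controls, and Yorkshire 3 has a high 3' minus 5' signal. Their part in this order was not tested.

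**Figure D3:**
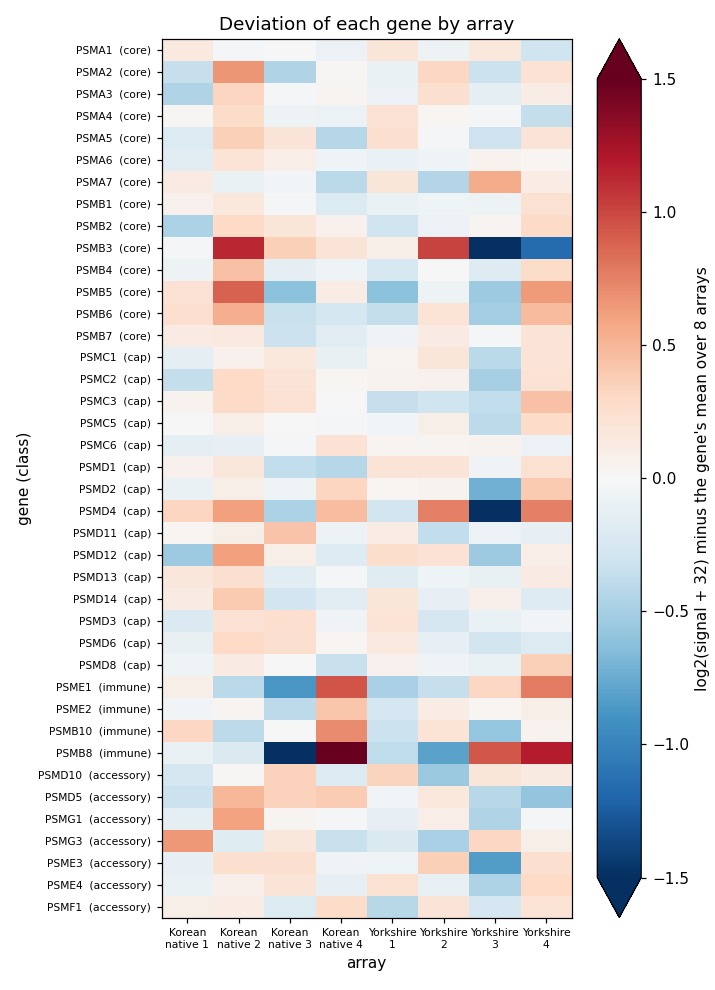
Deviation of each of the 40 genes on each array from its own mean over the 8 arrays (log2 scale, red above and blue below, colours end at 1.5 in either direction). PSMB8, PSME1 and PSME2 are darkest in Korean native pigs 3 and 4, PSMB10 is darkest in Korean native pig 4 and Yorkshire 3, PSMD4 and PSMB3 are darkest blue in Yorkshire 3, and most core genes are pale.

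The breed difference of the class levels was small beside the spread between animals. The class means over arrays differed by 0.056 for the core (within-breed SD 0.16), 0.025 for the cap (SD 0.17), -0.050 for the immune subunits (SD 0.51) and 0.093 for the accessory genes (SD 0.20; n = 4 per breed). The median of the gene changes was 0.025, 0.080, -0.053 and 0.15 in the same order. Among the bright arrays these medians were -0.012, 0.14, -0.20 and 0.24, and among the dim arrays 0.062, 0.051, 0.098 and -0.0089.

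Genes with several probe sets showed how much a value can depend on the probe set. PSMD11 was bright and even on its brightest probe set, but a further one read 758, 3792, 3448 and 2934 in the Korean native pigs and 2306, 3070.1, 790.0 and 2021 in the Yorkshire pigs, and another 174, 989.6, 732 and 485 and 401, 536, 201 and 610.2. A second PSMF1 probe set read 22.0, 428, 360.5 and 323 and 157, 470.4, 9.98 and 422. All 3 of these probe sets were lowest on Korean native pig 1 and Yorkshire 3, the 2 arrays of high 3' minus 5' signal, where the PSMD11 sets were -1.84 and -1.53 log2 units from the mean of the other 6. The PSMF1 set lay below the negative control limit on both, against a median of 391 on the other 6, so the size of its difference is uncertain. The probe sets that represent PSMD11 and PSMF1 differed there by -0.039 and -0.11. The breed changes of the 3 further sets were 0.34, 0.29 and 0.23, and none passed.

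**Figure D4:**
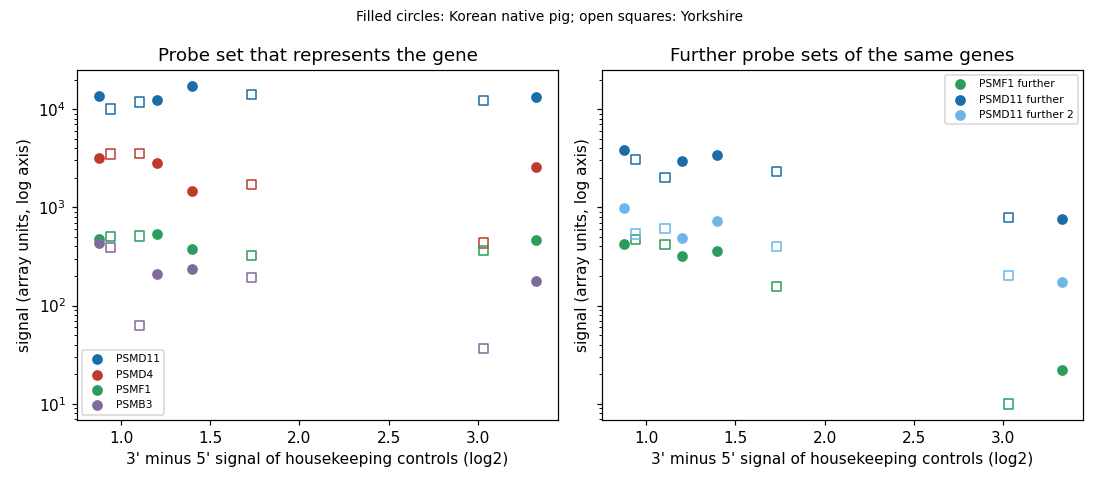
Signal (log axis) against the 3' minus 5' signal of housekeeping controls (log2) on the 8 arrays, for the representing probe sets of PSMD11, PSMD4, PSMF1 and PSMB3 (left) and for further probe sets of PSMD11 and PSMF1 (right); filled circles are Korean native pigs and open squares Yorkshire pigs. The further probe sets are lowest on the 2 arrays at the right, and the representing probe set of PSMD11 is level.

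The genes that feed the proteasome were not called between breeds. Of 10 tested genes of ubiquitin supply and activation 7 were above 0, with a median of 0.029 and none past the threshold. The conjugating enzymes UBE2R2 and UBE2B, at 0.44 and 0.25, had the lowest p. Among 9 partners and regulators 5 were above 0, with a median of 0.036. TPP2, a large peptidase that trims the products of the proteasome, was at 1352, 1921, 2034 and 1379 in the Korean native pigs and 1291, 883, 1284 and 951 in the Yorkshire pigs. The change of TPP2 was 0.58 (SE 0.22, 95% interval 0.11 to 1.05), limma adjusted p = 0.999. The breeds did not overlap for TPP2 and UBE2R2, which was so for 2.25% of all genes tested. Both were named because of their low p. The proteasome-bound thioredoxin TXNL1 was at 0.35.

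Of 5 tested muscle ubiquitin ligases and FOXO factors 2 were above 0, with a median of -0.032. FBXO32, the ligase atrogin, was at 1.06 and the mitochondrial ligase MUL1 at -0.18. Neither passed the threshold. The core and cap subunits themselves spanned changes of -0.21 to 0.83 and -0.28 to 0.46.

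Markers of muscle and of other cell types were not called in either direction. Of skeletal muscle markers 1 of 15 was above 0, against 49.6% of all genes. Their median was -0.30, with the lowest p for TNNC2 at -0.42 and MYL1 at -0.33. Among the bright arrays TNNC2 was at -0.049 and MYL1 at -0.054, and among the dim arrays at -0.80 and -0.61. Of endothelial markers 6 of 9 were above 0 (median 0.015, lowest p for EGFL7 at -0.62 and ENG at -0.64). Of fibroblast markers 1 of 7 was above 0 (-0.34, DPT at -0.66 and FBN1 at -0.52), of adipocyte markers 2 of 6 (-0.55, CFD at 0.70 and CIDEA at -0.79) and of red cell markers 2 of 3 (0.068, ALAS2 at -0.47 and HBM at 0.28).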

How the data were processed

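Total RNA was labelled with biotin and hybridised to 8 one-colour arrays. Deposited were intensity values on a linear scale for each probe set, and the submitters' processing notes name GCOS 1.3. The sources used here do not give how probe sets were summarised. The trimmed mean signal, without the outer 2% at each end, was 499.8 on every array, so changes are relative to the array's other probe sets. From these values log2(signal + 32) was computed, 124 control probe sets and the dimmest 40% of the rest were left out, and limma 3.58.1 (R 4.3.3; lmFit, eBayes with an intensity trend) was fitted to 14399 probe sets on 8 arrays without covariates, with Benjamini-Hochberg adjustment across all of them. The test was checked on simulated data. A gene is represented by its brightest probe set. Symbols come from GEO's platform annotation, which can be old, and all 40 members matched the RefSeq gene table of Sscrofa11.1 by gene number. The members and lists were chosen with earlier results of these data known. Members named with values are the immune subunits and the 3 of lowest p in each other group (by subunit type), with PSMA2, PSMA6, PSMB1, PSMB2, PSMB4, PSMB6, PSMC6 and PSMD14 added after their values were seen. From each other list the 2 of lowest p are named. Genes of the class I, interferon and leukocyte lists beyond those were chosen after their values were seen. Arrays are biological replicates per the labels, and their number limits the precision.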

Additional observations from a re-analysis of the deposited data

Results flagged for a closer look

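In 6 of the 80 groups of 4 arrays (40 genes in each breed) 1 array lay far from the other 3, where chance gives about 1 in 20. Each is given with the nearest value of its breed. In Yorkshire 4, PSMB1 was 8092, above 6577, and PSMC3 was 7987, above 4781, while PSMC6 was 4555, below 4978. In Korean native pig 2, PSMB4 was 10023, above 7091, and PSMC5 was 7338, above 6889.9. In Yorkshire 3, PSMD1 was 4185, below 4959. No cause of these values was tested.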

How the results depend on the processing

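Under all 20 alternatives 0 of 40 members passed the threshold, with a smallest limma adjusted p of 0.964. With the replicate number as a block (replicate block) 1 probe set of 14399, no member, passed. The deviations of same-numbered arrays correlated at -0.043, 0.31, 0.10 and 0.054 and Korean native pig 1 correlated best with Yorkshire 3, so the numbers were not taken as pairs. The class medians moved by less than the spread between animals, and leaving out single arrays they ran from -0.059 to 0.071 for the core, -0.074 to 0.16 for the cap, -0.29 to 0.23 for the immune subunits and 0.071 to 0.22 for the accessory genes. The immune median was 0.022 with arrays centred on their median, a scaling under which the median of all tested probe sets was 0.080. PSMB8 minus PSMB5 was 0.45 within the dim arrays, against -0.76 over all. Uncalled changes turned sign under some settings, most of them near 0 but also those of PSMB8 and PSMD4, which were among the largest. With quantile normalisation, PSMA3 was at 0.022 and PSME2 at -0.011. With arrays centred on their median, PSMA3 was at 0.018 and PSMD10 at 0.029. Within the dim arrays, PSMA3 was at 0.011, PSMB1 at -0.10, PSMB6 at -0.20, PSMB8 at 0.67, PSMC5 at -0.14, PSMD10 at 0.12, PSMD2 at -0.013, PSMD4 at -0.22, PSME1 at 0.067, PSME3 at -0.20, PSME4 at -0.12, PSMF1 at -0.0089 and PSMG3 at -0.061. Without the 2 arrays of highest 3' minus 5' signal, PSMA3 was at 0.025, PSMB1 at -0.040, PSMB6 at -0.13, PSMC5 at -0.084, PSMD10 at 0.083, PSMD2 at -0.039, PSMD4 at -0.21, PSME3 at -0.032 and PSME4 at -0.091. Within the bright arrays, PSMA4 was at -0.13, PSMB2 at -0.018, PSMD14 at -0.21 and PSME2 at -0.099. Leaving out single arrays also turned signs, with ranges of PSMA3 from -0.18 to 0.083, PSMA4 from -0.041 to 0.15, PSMB1 from -0.047 to 0.084, PSMB2 from -0.064 to 0.19, PSMB4 from -0.057 to 0.18, PSMB6 from -0.068 to 0.27, PSMB8 from -1.18 to 0.31, PSMC2 from -0.074 to 0.21, PSMC5 from -0.090 to 0.13, PSMD10 from -0.24 to 0.059, PSMD14 from -0.098 to 0.13, PSMD2 from -0.094 to 0.28, PSMD4 from -0.18 to 0.79, PSME1 from -0.46 to 0.15, PSME2 from -0.12 to 0.15, PSME3 from -0.097 to 0.30, PSME4 from -0.13 to 0.13 and PSMG3 from -0.044 to 0.29. The cause of these turns was not tested. Low signals on some arrays limit what can be said of PSMB3 and PSMB8.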
